A study of Mus musculus with 14 samples.

Results

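The ISWI remodelling ATPases and their partner subunits were followed in whole eyes of newborn mice after deletion of an ISWI ATPase or of a SWI/SNF ATPase. The set holds 9 genes named for their known roles and not for their values, namely Smarca5, Smarca1, Baz1a, Baz1b, Baz2a, Bptf, Rsf1, Chrac1 and Pole3. Of these, 7 were measured by 19 of the 20380 probe sets annotated to a single gene, and Baz1a and Rsf1 were not analysed here because the annotation used gave neither a probe set of its own. Smarca5 had 3 probe sets, Smarca1 had 1, Baz1b had 4, Baz2a had 3, Bptf had 4, Chrac1 had 1 and Pole3 had 3. Values are log2 intensities on Affymetrix arrays, where a probe set is a group of short probes for a transcript and a difference of 1 is a 2-fold difference. Snf2h lens-conditional knockout (cKO) pups and their wildtypes were newborn C57BL/6 mice, with 4 arrays each. Brg1 cKO pups and their wildtypes were on a mixed background, with 3 arrays each. All 14 samples are labelled postnatal day 1. The labels name no Cre driver, leave the cells of the Brg1 deletion unnamed, and do not say which samples came from separate animals, so p-values measure the spread between these samples. All groups were RNA of the whole eye, so fewer cells of a type and less RNA per cell cannot be told apart.

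ISWI enzymes slide and space nucleosomes with an ATPase subunit, either Snf2h (encoded by Smarca5) or its paralog Snf2l (encoded by Smarca1), and the partner subunit decides where the complex acts. Baz1a with Snf2h forms ACF, and the small histone-fold subunits Chrac1 and Pole3 join it in CHRAC. Baz1b forms WICH, and Baz2a (also called TIP5) forms the nucleolar complex NoRC, which silences ribosomal RNA genes. Rsf1 forms RSF, Bptf is the large subunit of NURF, whose usual ATPase is Snf2l, and Pole3 is also a subunit of DNA polymerase epsilon. The study deleted Snf2h in the lens, and the comparison below asks what happened to the remaining ISWI genes, above all to the paralog Smarca1.

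Eye tissue was on every array: the lens crystallin Cryba1 had log2 levels of 12.47 to 13.89 and the eye transcription factor Pax6 had 10.13 to 11.31. Median intensity lay between 101 and 114. Some arrays stood apart. Snf2h cKO replicates 1 and 2 were near-identical, with an SD of their difference over probe sets of 0.217, against 0.419 to 0.723 for the other 17 pairs within a group. Cornified skin markers had mean levels of 4.94 to 5.30 in Snf2h cKO arrays and of 5.25 to 8.03 in wildtype arrays. Snf2h wildtype replicate 3 had the widest gap between the 3' and 5' control probe sets of Gapdh, a measure of RNA quality, at 4.47. That gap was 0.77 to 0.99 in Snf2h cKO arrays and 1.09 to 4.47 in wildtype arrays. Gapdh gaps in the Brg1 experiment were 0.63 to 0.96 in cKO arrays and 0.68 to 0.74 in wildtype arrays.

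The deleted gene, Smarca5, had lower means in Snf2h cKO eyes at 1424205_at and 1424206_at and a higher mean at 1424207_at. None of its 3 probe sets passed the threshold, and the groups overlapped at each. At 1424205_at, log2 levels were 8.90, 8.91, 8.72 and 9.05 in Snf2h cKO eyes, against 9.45, 9.65, 9.46 and 9.02 in wildtype eyes. Only wildtype replicate 4 reached into the range of the cKO arrays. The log2 change was -0.50 ± 0.16 (SE, 95% interval -0.86 to -0.13), or 70.9% of the wildtype level, with an adjusted p of 0.188 by limma, so the check of the label did not pass the threshold. At 1424206_at levels were 9.73, 9.45, 8.52 and 9.41 in cKO eyes, against 9.35, 9.82, 9.34 and 9.36 in wildtype eyes, and at 1424207_at they were 7.61, 7.83, 7.38 and 7.70 in cKO eyes, against 7.23, 7.82, 6.60 and 7.64 in wildtype eyes. Groups overlapped at both probe sets, with log2 changes of -0.19 ± 0.25 (adjusted p 0.711, limma) and 0.31 ± 0.25 (adjusted p 0.538, limma). At 1424207_at the change was 0.07 without wildtype replicate 3, the array with the widest Gapdh gap. The deletion is confined to the lens by the label while the RNA is of the whole eye, and where the probes lie relative to the deleted exons is not given in the sources used here, so a probe set outside them would check nothing. Lens markers had mean levels of 10.05 to 10.94 in cKO arrays and 10.44 to 11.21 in wildtype arrays, and their part in the Smarca5 values was not tested.

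No increase of the paralog Smarca1 was detectable. Its levels were 6.57, 6.39, 6.28 and 6.43 in Snf2h cKO eyes, against 6.68, 6.68, 6.66 and 6.47 in wildtype eyes. Of the 4 wildtype arrays, replicate 4 lay inside the cKO range and the others above it. The log2 change was -0.20 ± 0.13 (SE, n = 4 each; adjusted p 0.429, limma), and its 95% interval ran from 71.0% to 106% of the wildtype level. Leaving out each array in turn gave log2 changes between -0.26 and -0.16. This rests on 1 probe set, whose mean over all arrays, 6.83, was just under 6.87, the median of all probe sets. These are levels of the whole eye, and Smarca1 within the lens was not measured separately.

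**Figure D1:**
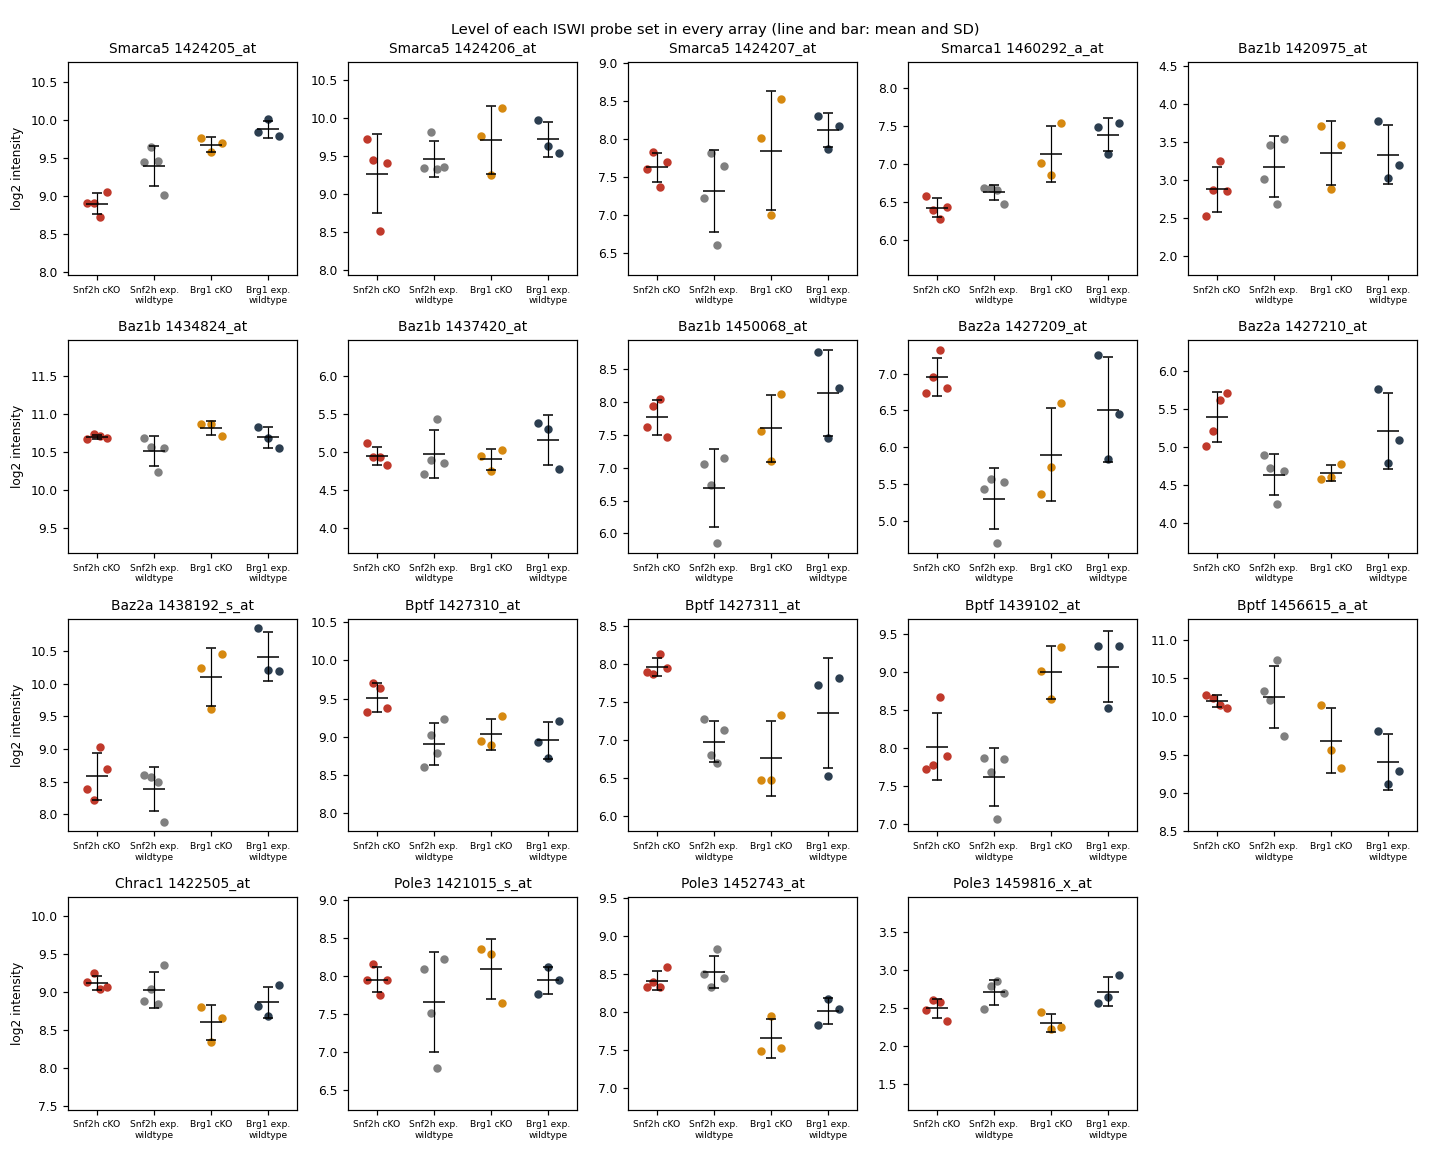
Log2 intensity of each of the 19 probe sets on each array, one panel per probe set, with cKO left of wildtype in each experiment; points are arrays, and lines and bars are group means and SDs. Arrays of Snf2h cKO lie above all wildtype arrays at 1 probe set of Baz1b, 2 of Baz2a and 2 of Bptf.

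No member probe set was called in the Snf2h experiment, nor was any of all 20380 probe sets (0%) at an adjusted p under 0.05 in limma. With array weights, which downweight arrays that vary more, 3 member probe sets and 561 of all 20380 probe sets were called. Short of that threshold, probe sets of Baz2a, Bptf and Baz1b were higher in every cKO array. At an unadjusted p under 0.05, 5 of the 19 probe sets (26.3%), from 3 genes, were higher in cKO eyes, where 10.1% of all probe sets were, and 1 (5.26%, Smarca5) was lower, where 7.58% of all were. The same 5 probe sets had cKO arrays all above the wildtype arrays, against 6.52% of all probe sets, and 0 had them all below, against 4.17%. Probe sets of 1 gene share their transcripts, so the 5 are not independent. The count at an unadjusted p stayed at 5 without wildtype replicate 3, where 8.23% of all probe sets were higher, and at 5 with the near-identical cKO arrays averaged, where 7.26% were. It was also 5 with both changes, where 6.06% were. The median log2 change was 0.19 over the 19 probe sets and -0.03 over all, with 11 members and 46.2% of all probe sets above 0.

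Baz2a gave the widest difference of the set. At 1427209_at, levels were 6.74, 6.95, 7.32 and 6.81 in Snf2h cKO eyes, against 5.44, 5.57, 4.70 and 5.53 in wildtype eyes. The groups lay more than 1 log2 unit apart. The log2 change was 1.65 ± 0.22 (SE, 95% interval 1.15 to 2.15), a 3.14-fold difference with an adjusted p of 0.0586 by limma, rank 6 of 20380 by p. At 1427210_at, levels were 5.01, 5.21, 5.62 and 5.71 in cKO eyes, against 4.89, 4.73, 4.25 and 4.68 in wildtype eyes, with a log2 change of 0.75 ± 0.20 (adjusted p 0.142, limma). Groups did not overlap there either, but the gap was narrow. Both of these Baz2a probe sets were dim, with means over all arrays under 6.87, the median of all probe sets, as were those of 6 of the 19 members. The third Baz2a probe set, 1438192_s_at, had 8.38, 8.22, 9.04 and 8.70 in cKO eyes, against 8.61, 8.57, 8.49 and 7.88 in wildtype eyes. Those groups overlapped, and the log2 change was 0.19 ± 0.23 (adjusted p 0.669, limma). The suffix _s_at marks a probe set that may be shared by several transcripts.

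Whether Baz2a 1427209_at passed the threshold depended on single arrays, and with all arrays it did not. Over all probe sets, 184 were called without wildtype replicate 1 and 77 without wildtype replicate 4, against 0 with all arrays. At 1427209_at the log2 change was 1.69 (adjusted p 0.0242, limma) without wildtype replicate 1 and 1.72 (adjusted p 0.0445) without wildtype replicate 4, both past the threshold. Without wildtype replicate 3, which was the lowest of its group at this probe set, it was 1.45 ± 0.17 (adjusted p 0.0793). With the near-identical cKO arrays averaged it was 1.69 ± 0.25 (adjusted p 0.203), and leaving out cKO replicate 2 alone gave the highest adjusted p, 0.268.

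Bptf was higher in cKO eyes by 2 of its 4 probe sets. At 1427311_at, levels were 7.89, 7.86, 8.13 and 7.95 in Snf2h cKO eyes, against 7.28, 6.81, 6.70 and 7.14 in wildtype eyes, without overlap. The log2 change was 0.98 ± 0.16 (1.97-fold, adjusted p 0.0710, limma, rank 40 by p), and it passed the threshold without wildtype replicate 1, at 1.07 with an adjusted p of 0.0268. At 1427310_at, levels were 9.33, 9.71, 9.63 and 9.38 in cKO eyes, against 8.60, 9.02, 8.78 and 9.23 in wildtype eyes, with a log2 change of 0.60 ± 0.17 (adjusted p 0.154, limma). Here the lowest cKO array and the highest wildtype array were 9.33 and 9.23, so the separation was small. The remaining Bptf probe sets overlapped between groups: 1439102_at had a log2 change of 0.40 ± 0.25 (adjusted p 0.431, limma) and 1456615_a_at one of -0.06 ± 0.20 (adjusted p 0.896, limma).

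Baz1b was higher by 1 of 4 probe sets. At 1450068_at, levels were 7.62, 7.95, 8.04 and 7.47 in Snf2h cKO eyes, against 7.06, 6.73, 5.85 and 7.15 in wildtype eyes. Every cKO array lay above every wildtype array, and the log2 change was 1.07 ± 0.28 (2.10-fold, adjusted p 0.135, limma), or 0.79 ± 0.19 without wildtype replicate 3, the lowest array. At 1434824_at the cKO arrays were close together at 10.67, 10.74, 10.71 and 10.68, against 10.68, 10.57, 10.23 and 10.56 in wildtype eyes. Its log2 change was 0.19 ± 0.14 (adjusted p 0.487, limma), with a 95% interval of 92.3% to 141% of wildtype. The other Baz1b probe sets, 1420975_at and 1437420_at, were dim at 2.52 to 3.53 and 4.70 to 5.42 in this experiment, under the median level, and had log2 changes of -0.30 ± 0.22 and -0.02 ± 0.17.

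The small histone-fold subunits had overlapping groups at each probe set, and no change passed the threshold. Chrac1 had levels of 9.13, 9.25, 9.04 and 9.07 in Snf2h cKO eyes, against 8.88, 9.04, 8.84 and 9.36 in wildtype eyes, with a log2 change of 0.09 ± 0.15 (adjusted p 0.770, limma). The 95% interval for Chrac1 was 84.5% to 135% of wildtype. Pole3 had 7.95, 8.16, 7.76 and 7.94 in cKO eyes at 1421015_s_at, against 8.09, 7.52, 6.79 and 8.22 in wildtype eyes, a log2 change of 0.30 ± 0.29 (adjusted p 0.605, limma). At 1452743_at Pole3 had 8.33, 8.40, 8.33 and 8.59 in cKO eyes, against 8.51, 8.33, 8.83 and 8.45 in wildtype eyes, a log2 change of -0.12 ± 0.15 (adjusted p 0.708, limma). Groups overlapped at both. The third, 1459816_x_at, was dim at 2.34 to 2.87, with a log2 change of -0.21 ± 0.14, and its suffix marks probes that may cross-hybridise.

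**Figure D2:**
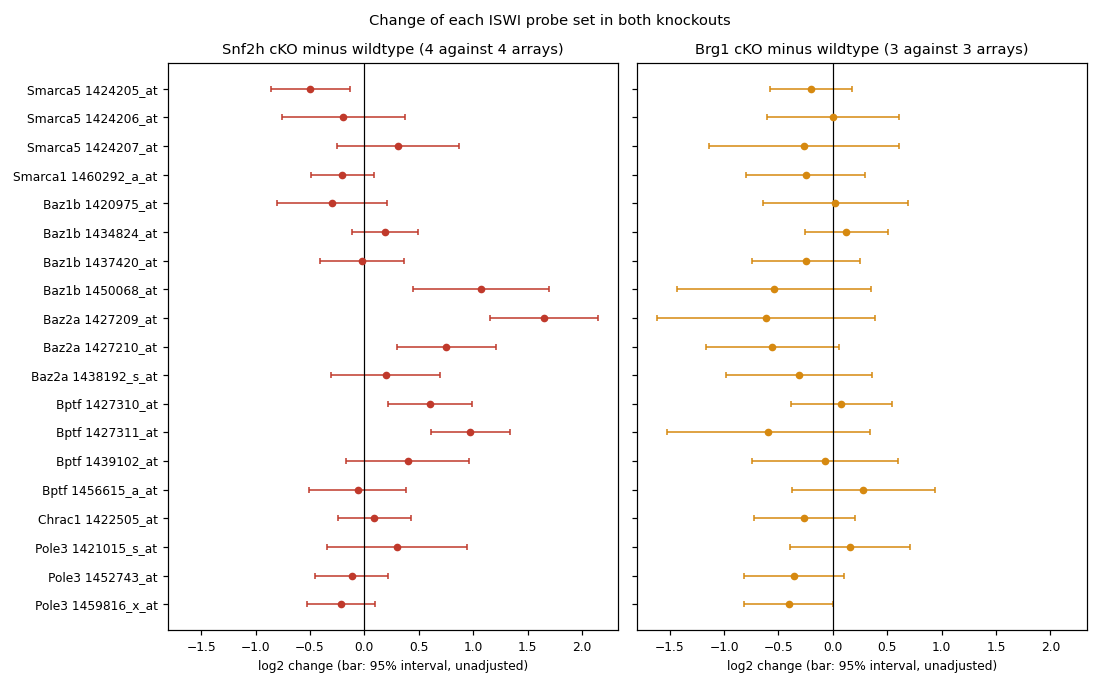
Log2 change of each probe set with its 95% interval from limma, Snf2h cKO against its wildtype and Brg1 cKO against its wildtype, with 0 marked. In the Snf2h experiment the intervals of 1 Baz1b, 2 Baz2a and 2 Bptf probe sets lie above 0 and that of Smarca5 1424205_at below it; none passed the adjusted threshold.

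Probe sets of one gene often disagreed. Over the 21 pairs of probe sets within a member gene, 10 had Snf2h changes of the same sign and 11 of opposite sign, while 41.9% of the 12821 such pairs on the array were opposite. The difference between the probe sets on each array was compared between groups by an exact two-sided permutation test, whose smallest possible p for 4 against 4 arrays is 0.0286. That value was reached by 7 of the 21 pairs, whose differences did not overlap between groups, against 10.9% of all pairs, and adjusted over the 21 pairs it was 0.0857, so 0 passed. The 7 pairs came from Smarca5 (1), Baz1b (3), Baz2a (2) and Bptf (1). Every member gene with more than 1 probe set other than Pole3 therefore had a pair that reached the smallest p. Pairs of a gene share probe sets, so they are not independent. Each of the Baz1b, Baz2a and Bptf pairs among the 7 also holds a probe set whose own groups did not overlap. These pairs are therefore not separate from that earlier result. The Gapdh gap also separated these groups, at 0.77 to 0.99 in cKO arrays and 1.09 to 4.47 in wildtype arrays. Its part in the differences between probe sets was not tested.

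For Smarca5, 1424205_at exceeded 1424207_at by 1.08 to 1.36 in cKO arrays and by 1.38 to 2.85 in wildtype arrays, so their changes differed by -0.81. For Baz2a, 1427209_at exceeded 1427210_at by 1.09 to 1.74 in cKO arrays and by 0.45 to 0.85 in wildtype arrays, with a Pearson r of 0.90 between them over the 8 arrays. The same Baz2a probe set minus 1438192_s_at gave -1.89 to -1.27 in cKO arrays and -3.79 to -2.36 in wildtype arrays, a difference of changes of 1.46, with r 0.33. These 2 Baz2a pairs thus differ in size of change and not in its sign.

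For Bptf, 1427311_at minus 1456615_a_at gave -2.39 to -2.03 in cKO arrays and -4.03 to -2.60 in wildtype arrays, a difference of changes of 1.03, with r -0.29. The 3 Baz1b pairs all set 1450068_at against another probe set, with differences of -1.37 (1420975_at), -1.09 (1437420_at) and -0.88 (1434824_at). Their r were 0.03, -0.53 and 0.91 in that order, and only the pair with 1434824_at had changes of the same sign. Both 1420975_at and 1437420_at were dim, with means over all arrays of 3.16 and 4.99. Over all 21 pairs, r across the 8 arrays ran from -0.77 to 0.91 with a median of 0.10. The points of each r are arrays of 2 groups and share the array's RNA and scale.

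**Figure D3:**
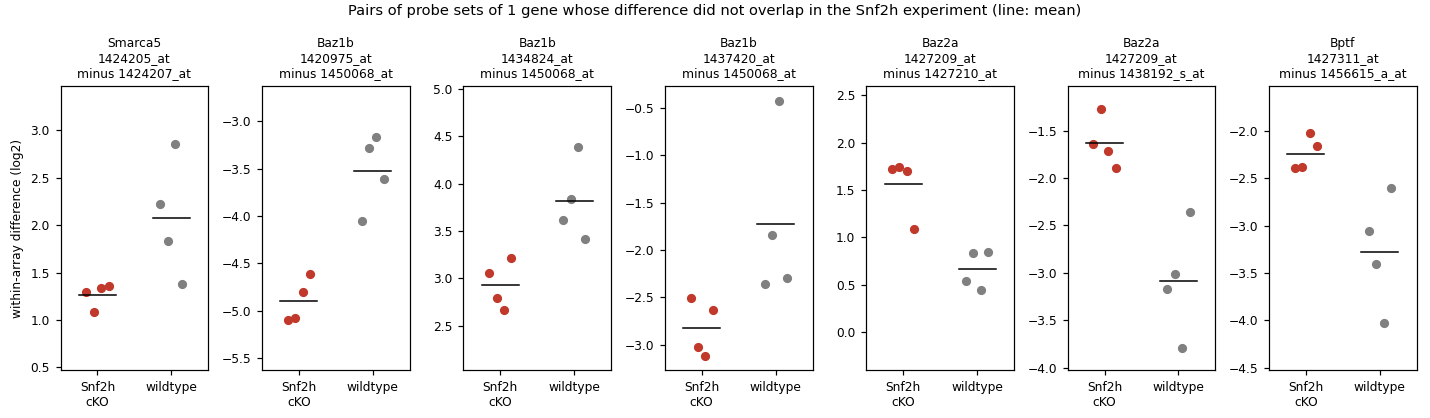
Within-array log2 difference between probe sets of one gene for the 7 pairs whose Snf2h cKO and wildtype arrays do not overlap; points are arrays, cKO left of wildtype. Baz2a, Bptf, Baz1b and Smarca5 each have a pair here.

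How a gene is summarised changed what it showed. The brightest probe set on average was 1438192_s_at for Baz2a and 1456615_a_at for Bptf, and neither differed beyond its error. With the probe sets of each gene averaged, log2 changes in Snf2h cKO eyes were 0.87 ± 0.18 for Baz2a (adjusted p 0.153, limma), 0.48 ± 0.12 for Bptf (adjusted p 0.153) and 0.24 ± 0.14 for Baz1b (adjusted p 0.385). The averages were -0.13 ± 0.18 for Smarca5 (adjusted p 0.724) and -0.01 ± 0.12 for Pole3 (adjusted p 0.973).

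Other measures were set beside the 5 higher probe sets of Baz2a, Bptf and Baz1b. Of those 5, wildtype replicate 3 was the lowest wildtype array at 4 and cKO replicate 3 the highest cKO array at 3. The Gapdh gap did not overlap between cKO arrays (0.77 to 0.99) and wildtype arrays (1.09 to 4.47). A fit with the gap as a covariate therefore cannot tell it from genotype. With the Gapdh gap as a covariate, the log2 changes were smaller at all 5: 1.34 for Baz2a 1427209_at (adjusted p 0.118, limma), 0.56 for Baz2a 1427210_at (0.362), 0.83 for Bptf 1427311_at (0.189), 0.53 for Bptf 1427310_at (0.364) and 0.63 for Baz1b 1450068_at (0.273), the last against 1.07 without the covariate. Markers of retinal neurons, 12 genes, had mean levels of 9.67 to 9.88 in Snf2h cKO arrays and 8.82 to 9.21 in wildtype arrays, also without overlap, and photoreceptor markers, 7 genes, had 9.08 to 10.03 in cKO arrays and 8.56 to 9.22 in wildtype arrays. Proliferation markers, 20 genes, had 9.46 to 9.68 in cKO arrays and 9.54 to 9.67 in wildtype arrays. The part of retinal cells in the Baz2a, Bptf and Baz1b values was not tested.

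In the Brg1 experiment, no member probe set was called in limma, where 0.623% of all probe sets were. At an unadjusted p under 0.05 the members counted 0 higher and 0 lower, against 4.44% and 3.68% of all probe sets. No member had all cKO arrays above the wildtype arrays (7.23% of all), and 3 of 19 had them all below (6.2% of all), namely Smarca5 1424205_at, Baz2a 1427210_at and Pole3 1459816_x_at. The median log2 change was -0.25 over the 19 probe sets, with 5 above 0, and -0.006 over all probe sets. Leaving out each array in turn, no member was called either.

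Smarca5 in the Brg1 experiment had levels of 9.76, 9.57 and 9.70 at 1424205_at in cKO eyes, against 9.84, 10.01 and 9.79 in wildtype eyes. The log2 change there was -0.20 ± 0.16 (adjusted p 0.813, limma), and at the other Smarca5 probe sets it was -0.002 ± 0.26 and -0.27 ± 0.37. Smarca1 had 7.00, 6.84 and 7.54 in Brg1 cKO eyes, against 7.47, 7.13 and 7.53 in wildtype eyes, a log2 change of -0.25 ± 0.23 (95% interval -0.79 to 0.29, adjusted p 0.841, limma). Groups overlapped for Smarca1, and neither ATPase gene passed the test in these eyes.

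Baz2a 1427209_at had 5.36, 5.74 and 6.60 in Brg1 cKO eyes, against 7.25, 5.84 and 6.45 in wildtype eyes, a log2 change of -0.61 ± 0.43 (adjusted p 0.788, limma). Bptf 1427311_at had 6.48, 6.48 and 7.33 in cKO eyes, against 7.73, 6.53 and 7.82 in wildtype eyes, a log2 change of -0.59 ± 0.40 (adjusted p 0.782). Baz1b 1450068_at had 7.56, 7.10 and 8.13 in cKO eyes, against 8.76, 7.45 and 8.21 in wildtype eyes, a log2 change of -0.54 ± 0.38 (adjusted p 0.790). Single arrays moved these changes by over 1.5 times: without wildtype replicate 1 they were -0.24 for Baz2a 1427209_at, -0.41 for Bptf and -0.23 for Baz1b, and leave-one-out ranges were -0.96 (without cKO replicate 3) to -0.24 for Baz2a, -1.01 (without wildtype replicate 2) to -0.36 (without wildtype replicate 3) for Bptf and -0.88 (without wildtype replicate 2) to -0.23 for Baz1b. At all 3 probe sets the groups overlapped. Over the 5 probe sets separated in the Snf2h experiment, Brg1 cKO replicate 3 was the highest cKO array at 5. Wildtype replicate 2 was the lowest wildtype array at 5. The highest wildtype array varied, being replicate 1 at 3 of them and replicate 3 at 2. Chrac1 had 8.80, 8.35 and 8.66 in cKO eyes, against 8.81, 8.69 and 9.09 in wildtype eyes, a log2 change of -0.26 ± 0.20 (adjusted p 0.802).

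Pole3 1452743_at had 7.50, 7.96 and 7.53 in Brg1 cKO eyes, against 7.84, 8.18 and 8.04 in wildtype eyes, a log2 change of -0.36 ± 0.20 (adjusted p 0.735, limma), while 1421015_s_at had a log2 change of 0.16. Among the 21 pairs of probe sets in this experiment, 10 had opposite signs, where 35.3% of all pairs did. That Pole3 pair alone reached 0.1, the smallest p of the exact permutation test with 3 against 3 arrays, which cannot reach 0.05. The remaining Brg1 changes are drawn in the plot of log2 changes, and they ran from -0.56 (Baz2a 1427210_at, adjusted p 0.656, limma) to 0.28 (Bptf 1456615_a_at).

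Other cells also differed in these eyes. Neutrophil and macrophage markers, 13 genes, had mean levels of 7.58 to 9.11 in Brg1 cKO arrays and 5.85 to 6.05 in wildtype arrays, and lens markers had 7.61 to 9.81 in cKO arrays and 11.08 to 11.24 in wildtype arrays. Their part in the member values was not tested. The deleted gene itself, Smarca4, had 7.08, 7.06 and 7.92 in Brg1 cKO eyes at 1426805_at, against 8.47, 7.75 and 8.07 in wildtype eyes. Its log2 change was -0.74 ± 0.30 (adjusted p 0.579, limma), and the other Smarca4 probe set, 1426804_at, had 0.05 ± 0.22 (adjusted p 0.972), so this check of the label did not pass the threshold either.

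The knockout effects were set against each other with an interaction contrast, the Snf2h change minus the Brg1 change, over all 14 arrays. No member was called, where 0.687% of all probe sets were, and 4 of 19 (21.1%) had an unadjusted p under 0.05, where 12.6% of all did. The widest difference was at Baz2a 1427209_at, 2.26 ± 0.48 on the log2 scale (adjusted p 0.0506, limma), just short of the threshold. It passed without Brg1 wildtype replicate 2 (2.60, adjusted p 0.0260) and without Brg1 cKO replicate 3 (2.61, adjusted p 0.0175). These were the lowest wildtype array and the highest cKO array of the Brg1 experiment at this probe set. Without Brg1 wildtype replicate 1 the difference was 1.89 (adjusted p 0.148), and with the Gapdh covariate 1.94 (adjusted p 0.162). Bptf 1427311_at differed by 1.57 ± 0.42 (adjusted p 0.134), also past the threshold without the same arrays (adjusted p 0.0183 and 0.0443), but at 1.38 (adjusted p 0.346) without Brg1 wildtype replicate 1. Baz1b 1450068_at differed by 1.61 ± 0.50 (adjusted p 0.196) and Baz2a 1427210_at by 1.31 ± 0.34 (adjusted p 0.118). For Smarca1 the difference was 0.05 ± 0.25 (adjusted p 0.961), so no difference between the knockouts was detectable in the paralog. Nor was one detectable in Smarca5, the gene deleted in the Snf2h experiment. Its differences were -0.30 ± 0.23 at 1424205_at (adjusted p 0.623, limma), -0.19 ± 0.39 at 1424206_at (adjusted p 0.877) and 0.58 ± 0.46 at 1424207_at (adjusted p 0.644).

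Some members differed between the experiments whatever the genotype. Levels did not overlap at 3 of 19 probe sets (15.8%), a smaller share than the 21.6% of all probe sets. Smarca1 had 6.84 to 7.54 on the 6 Brg1-experiment arrays and 6.28 to 6.68 on the 8 Snf2h-experiment arrays. Baz2a 1438192_s_at had 9.61 to 10.85 on Brg1-experiment arrays and 7.88 to 9.04 on Snf2h-experiment arrays. Pole3 1452743_at ran the other way, with 7.50 to 8.18 on Brg1-experiment arrays and 8.33 to 8.83 on Snf2h-experiment arrays. Strain and experiment cannot be told apart here.

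Other ISWI partners had no calls either. Of 11 listed genes, 9 had probe sets, 17 in all, and 0 were called in either knockout. In Snf2h cKO eyes 2 probe sets were higher and 2 lower at an unadjusted p under 0.05, counts near what the 10.1% and 7.58% of all probe sets would give, and the median log2 change was -0.12. Sf3b1, a splicing factor found with Snf2h in the B-WICH complex, had a log2 change of 1.05 ± 0.22 at 1418562_at (adjusted p 0.0888, limma), while its other probe sets had -0.19 and -0.12. The histone-binding subunit Rbbp4 had -0.78 ± 0.17 at 1454791_a_at (adjusted p 0.102), while its other probe sets had -0.27 and 0.007. Mybbp1a, another B-WICH subunit, had 0.47 ± 0.19 at 1423430_at (adjusted p 0.249) and -0.27 ± 0.16 at 1423431_a_at. Pole4, the histone-fold partner of Pole3 in DNA polymerase epsilon, had -0.38 ± 0.17 at 1423372_at (adjusted p 0.278) and -0.21 ± 0.19 at 1423371_at. In Brg1 cKO eyes 0 were higher and 0 lower at that level, with a median of -0.09, and the smallest p were those of Rbbp4 1454791_a_at (-1.04 ± 0.46), Sf3b1 1449138_at (0.37 ± 0.17), Ddx21 1448271_a_at (0.34 ± 0.19) and Mybbp1a 1423430_at (0.25 ± 0.18). Their other probe sets had -0.42 and -0.07 for Rbbp4, -0.37 and -0.19 for Sf3b1, -0.09 for Ddx21 and 0.17 for Mybbp1a.

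ATPases of other remodelling families, 19 of 27 listed genes with 36 probe sets, also had 0 calls in either knockout. In Snf2h cKO eyes 11 of the 36 probe sets were higher and 2 lower at an unadjusted p under 0.05, with a median log2 change of 0.09. Of all probe sets, 10.1% were higher and 7.58% lower. Among the members 5 of 19 were higher, so a share of higher probe sets above that of all was not particular to the ISWI set. The smallest p were those of Atrx 1420947_at (1.26 ± 0.19, adjusted p 0.0710, limma), Chd4 1436343_at (1.64 ± 0.29, adjusted p 0.0759), Smarca4 1426805_at (0.89 ± 0.17, adjusted p 0.0888) and Smarca2 1452333_at (0.95 ± 0.21, adjusted p 0.105). As with the members, probe sets of a gene disagreed: the 5 for Atrx ran from -0.51 to 1.26, Smarca4 had -0.33 at 1426804_at, and Smarca2 had -0.007 at 1430526_a_at. All 3 Chd4 probe sets were higher in every cKO array.

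In Brg1 cKO eyes 0 of these ATPase probe sets were higher and 3 lower at that level, with a median of -0.20, against 4.44% and 3.68% of all probe sets. The 3 were Atrx 1420945_at (-0.75 ± 0.21, adjusted p 0.292, limma), Smarca4 1426805_at (-0.74 ± 0.30) and Ino80 1418125_at (-0.44 ± 0.18, adjusted p 0.601). Rad54l2, the next gene by p, had -0.45 ± 0.27 (adjusted p 0.750). One probe set passed the interaction test, Smarca4 1426805_at, where the Snf2h change exceeded the Brg1 change by 1.63 ± 0.34 (adjusted p 0.0423). The other Smarca4 probe set gave a difference of -0.38 (adjusted p 0.670), and the called one is the gene deleted in the Brg1 experiment.

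Genes whose levels ran most like the ATPase genes were ranked by Pearson r over the 14 arrays among 6195 genes. For Smarca5, at 1424206_at, these were Rnf114 (r 0.70), Oard1 (0.68), Trappc13 (0.67), Zfp330 (0.66) and Cryz (0.65). Within the 8 Snf2h-experiment arrays their r with Smarca5 ran from 0.34 to 0.82, and within the 6 Brg1-experiment arrays from 0.35 to 0.86. For Smarca1 they were Med30, Abcg2, Neo1, Fundc1 and Hey1, with r of 0.95 to 0.96 over all arrays. Smarca1 levels did not overlap between the experiments, and r was 0.22 to 0.72 within the Snf2h experiment and 0.85 to 0.99 within the Brg1 experiment. Each r is a description over arrays that share strain and scale, with no test.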

How the data were processed

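Total RNA of whole eyes was amplified from 50 ng and labelled with biotin, per the labels' protocols, and hybridised to 14 single-colour Affymetrix arrays. The authors deposited probe set intensity on a linear scale, made with RMA per the submitters' processing notes (its version is not given in those notes). No source says if the experiments shared one normalisation, and the deposited intensities carry no detection calls. The log2 of the deposited values was taken with no further scaling or offset. Of 22690 probe sets, 64 controls were left out. The array annotation gave 1 gene to 20380, several genes to 691 and none to 1555, and only the 20380 were tested. The RefSeq gene table changed 0 symbols. The annotation names no genome build, so no positions are given. The number of arrays limits the precision.

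Group means were tested by limma 3.58.1 in R 4.3.3 (lmFit, eBayes, two-sided) over all 20380 probe sets, with Benjamini-Hochberg adjustment and a threshold of 0.05; errors of changes are limma's moderated standard errors. The knockout effects were compared by an interaction contrast. The members, the lists and the tests were chosen with earlier results of these data known. Probe sets named are all those of the members, the 5 genes of highest Pearson r with Smarca5 and Smarca1 (each represented by its brightest probe set, among genes above the median level), and in the related-gene lists those called plus up to 4 genes with the smallest p per comparison. The test was checked on simulated data. Tissue marker lists were lens, retinal neurons, photoreceptors, retinal progenitors, surface epithelium, cornified skin, neutrophils and macrophages, stroma, skeletal muscle, red blood cells and proliferating cells, as mean levels of each gene's brightest probe set. Alternatives were other normalisations, a filter on dim probe sets, trended robust eBayes, array weights, gene means, the Gapdh gap as covariate, the replicate block, 1 fit over all arrays, averaging near-identical arrays and leaving out each array. Counts of higher members without Snf2h wildtype replicate 3 were added after seeing the data.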

Additional observations from a re-analysis of the deposited data

Results flagged for a closer look

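Within groups of 4 arrays, 5 of the 38 groups of member values held an array far from the other 3 by Dixon's test at 95%, which chance does in about 1 in 20 groups. Snf2h cKO replicate 3 was high for Bptf 1439102_at, at a log2 level of 8.67. The other 4 were wildtype arrays of the Snf2h experiment: replicate 2 was high for Smarca5 1424206_at at 9.82, replicate 4 was low for Smarca1 at 6.47 and for Baz2a 1438192_s_at at 7.88, and replicate 3 was low for Baz2a 1427209_at at 4.70. The groups of 3 arrays were not examined this way.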

How the results depend on the processing

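The numbers of called members moved with few settings. In the Snf2h experiment 3 member probe sets were called with array weights (Baz2a 1427209_at, Bptf 1427311_at and Baz1b 1450068_at), against 0 in the fit reported. Leaving out 1 array gave 0 to 2 calls there and 0 to 2 in the interaction, where quantile normalisation within each experiment gave 1 and trended robust eBayes gave 1, in both cases Baz2a 1427209_at. No setting called a member in the Brg1 experiment, and none brought a pair of probe sets past the threshold. Over all probe sets, calls in the Snf2h experiment numbered up to 561 (array weights) against 0, with 184 without wildtype replicate 1 and 77 without wildtype replicate 4. In the Brg1 experiment they ran from 15 (dim probe sets left out) to 280 (1 fit over all arrays) against 127, and in the interaction from 7 (dim probe sets left out) to 290 (without Brg1 cKO replicate 3) against 140.

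Directions turned for probe sets with small changes. With array weights the Snf2h log2 change was 0.0934 for Baz1b 1437420_at and -0.0807 for Baz2a 1438192_s_at. With the Gapdh covariate it was -0.0373 for Smarca5 1424207_at, 0.205 for Baz1b 1437420_at, 0.191 for Bptf 1456615_a_at, -0.00907 for Chrac1, -0.145 for Pole3 1421015_s_at and 0.0334 for Pole3 1452743_at. The Brg1 change of Smarca5 1424206_at was 0.0103 with quantile normalisation over all arrays, 0.0134 within each experiment, 0.133 with array weights and 0.0681 with the Gapdh covariate, and that of Bptf 1439102_at was 0.00238 with array weights. The interaction was -0.0316 for Smarca1 with array weights, and -0.0708 for Baz1b 1434824_at and -0.298 for Pole3 1421015_s_at with the Gapdh covariate. The cause of these turns was not tested.

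With 1 array left out, Snf2h changes ran from -0.11 to 0.13 for Baz1b 1437420_at, from -0.23 to 0.10 for Bptf 1456615_a_at and from -0.34 to 0.0590 for Smarca5 1424206_at. Brg1 changes ran from -0.21 to 0.23 for Smarca5 1424206_at, from -0.61 to 0.16 for Smarca5 1424207_at, from -0.35 to 0.10 for Bptf 1439102_at, from -0.0391 to 0.20 for Bptf 1427310_at and from -0.16 to 0.25 for Baz1b 1420975_at. The interaction ran from -0.0280 to 0.13 for Baz1b 1434824_at, from -0.15 to 0.33 for Pole3 1421015_s_at, from -0.0944 to 0.25 for Smarca1 and from -0.43 to 0.0614 for Smarca5 1424206_at.

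The replicate number as a block called 0 members in the Snf2h experiment, 0 in the Brg1 experiment and 0 in the interaction, with smallest adjusted p of 0.237, 0.608 and 0.110 in limma, and 0, 50 and 81 of all probe sets, against 0, 127 and 140 without it. No pairing of the samples by number was detectable, though so few arrays cannot exclude one. Same-numbered cKO and wildtype arrays deviated from their group means with r of 0.057, -0.230, -0.227 and 0.025 in the Snf2h experiment. In the Brg1 experiment these r were 0.066, 0.083 and 0.133. Of the arrays, 0 of 8 and 0 of 6 correlated best with their own number. With 3 or 4 arrays a group and dim probe sets kept, small changes of these genes could not be told from the spread.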

Other observations

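Marker lists of other eye tissues, as mean log2 levels per array, stood as follows. Retinal progenitor markers had 9.13 to 9.35 in Snf2h cKO arrays and 9.19 to 9.40 in wildtype arrays, and 9.28 to 9.67 in Brg1 cKO arrays and 9.65 to 9.74 in wildtype arrays. Surface epithelium markers had 7.27 to 8.13 in Snf2h cKO arrays and 7.60 to 8.89 in wildtype arrays, and 8.08 to 9.11 in Brg1 cKO arrays and 8.86 to 8.97 in wildtype arrays. Stromal markers had 9.51 to 9.87 in Snf2h cKO arrays and 9.67 to 10.51 in wildtype arrays, and 10.10 to 10.93 in Brg1 cKO arrays and 10.54 to 11.16 in wildtype arrays. Skeletal muscle markers had 10.27 to 10.48 in Snf2h cKO arrays and 9.61 to 10.46 in wildtype arrays, and 9.96 to 11.39 in Brg1 cKO arrays and 10.42 to 11.24 in wildtype arrays. Red blood cell markers had 4.05 to 5.34 in Snf2h cKO arrays and 5.05 to 5.64 in wildtype arrays, and 4.47 to 5.55 in Brg1 cKO arrays and 4.80 to 5.43 in wildtype arrays. Ranges overlapped between cKO and wildtype for each of these lists in both experiments.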
